A study of Mus musculus with 6 samples.

Results

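The BCL2 family genes of the mouse dendritic cell line MuTuDC1940 were followed through stimulation with poly(I:C), a synthetic mimic of viral double-stranded RNA. The 10 members were chosen by name as pro-survival and pro-apoptotic genes of the family: Bcl2, Bcl2l1, Mcl1, Bcl2a1a, Bcl2a1b, Bcl2a1d, Bcl2l11, Pmaip1, Bbc3 and Bax. The choice was made with earlier results of these data known. All 10 members were found among the 32903 gene symbols of the deposited table. Polyadenylated RNA was sequenced from untreated cells and from cells treated with it for 18 hours at 5 µg/ml, with 3 samples per group in the series. The comparison uses 2 libraries per group, since the table header does not settle which group its other 2 columns belong to. The libraries are called by their column headings, NT01 and NT02 for untreated cells and PolyIC01 and PolyIC02 for treated cells. All samples are of this single line, which as background is known to come from a splenic tumour of a mouse that expresses a viral large T antigen from the Itgax (CD11c) promoter. Large T antigen binds the p53 and retinoblastoma proteins, so p53 targets are read here in a transformed cell. Nothing in the labels says whether samples of a group came from separate cultures, and the p-values reflect the spread among these libraries alone, which may be technical.

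BCL2 family proteins decide at the outer mitochondrial membrane whether a cell enters apoptosis. Pro-survival members (BCL2, BCL-XL, MCL1 and A1) hold the effectors BAX and BAK in check, and BH3-only proteins such as BIM, NOXA and PUMA bind the pro-survival members or the effectors and so promote pore formation and cytochrome c release. In mouse dendritic cells, BIM and BCL2 are known to set how long the cells live, and A1 is a known target of NF-kB in blood cells.

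Values are in TPM, a transcript abundance per length relative to a fixed total of 1000000 per library, so levels can be compared between genes. TPM keeps no record of sequencing depth, and depth is therefore unknown. Between 11207 and 11584 genes reached 1 TPM in a library. Markers of type 1 conventional dendritic cells (cDC1) were present: Irf8 lay at 2477 to 2639 TPM, Xcr1 at 190.6 to 335.3 TPM and Clec9a at 185.9 to 236.6 TPM. Of 10 such markers tested, 5 rose and 4 fell, with 1 not passing: Cd24a fell most, from 382.1 to 142.5 TPM in the mean, Flt3, Itgax and Batf3 fell too, and Itgae was under 1 TPM in every library. Of the T cell markers, Cd3e and Cd3g were listed at 0 in all 4 libraries, while Cd3d rose from 0.842 to 1.53 TPM in the mean. Ms4a1, which marks B cells, was also higher with the ligand in this test, at a mean of 6.25 against 3.38 TPM, and the 5 neutrophil markers summed to no more than 0.127 TPM. The 8 macrophage and monocyte markers summed to 264 to 265 TPM without and 285 to 300 TPM with poly(I:C), a sum that holds opposite moves: C1qa rose from 37.0 to 170.9 TPM, Fcgr1 from 0.327 to 4.71 and Cd14 from 8.22 to 12.1, while Lyz2 fell from 217.9 to 103.0 TPM. The defining marker Csf1r was listed at 0 in both treated libraries. The 5 plasmacytoid dendritic cell markers summed to 184 and 185 TPM in untreated and 1287 and 1261 TPM in treated libraries, nearly all of it Bst2, while the defining marker Siglech stayed under 0.5 TPM. The part of such shifts in the results below was not tested. In bulk RNA, fewer cells with a transcript and less transcript per cell cannot be told apart.

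Of the members, the A1 genes Bcl2a1a, Bcl2a1b and Bcl2a1d are close copies on chromosome 9, and their sequences set how far their values can be read apart. The copies lie between 88723288 and 89207838 (GRCm38), with Bcl2a1d on the minus strand and the other copies on the plus strand. Their coding sequences are each 516 bases long, encode 172 residues and differ at 12 sites in all. The first 60 coding bases hold 6 of these sites and are shown because they carry most of the difference per length (GENCODE annotation of GRCm38, 5′ to 3′; capitals mark bases that differ between any of the copies).
Bcl2a1a, chr9:88957051-88957110, plus strand: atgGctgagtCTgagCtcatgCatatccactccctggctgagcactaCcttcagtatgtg
Bcl2a1b, chr9:89199360-89199419, plus strand: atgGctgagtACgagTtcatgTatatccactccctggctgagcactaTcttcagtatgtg
Bcl2a1d, chr9:88731660-88731719, minus strand: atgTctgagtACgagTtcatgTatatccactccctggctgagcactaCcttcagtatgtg

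Coding identity was 97.9% between Bcl2a1a and Bcl2a1b, 98.6% between Bcl2a1a and Bcl2a1d and 98.8% between Bcl2a1b and Bcl2a1d. Cut into overlapping stretches of 31 bases, the transcript of Bcl2a1b had 27.3% of its stretches in neither other copy. The corresponding share was 21.7% for Bcl2a1a and 10.9% for Bcl2a1d. Only reads over such stretches point to a single copy, while reads over stretches shared by a pair of copies leave out the third. All copies shared 444 stretches, which cannot tell them apart. The split of TPM between the copies is therefore uncertain, by the share of unique stretches most of all for Bcl2a1d. The measure used GENCODE transcripts, while the TPM are of RefSeq transcripts, whose ends may differ. The related gene Bcl2a1c was not part of it. The sum of the copies does not depend on the split between them.

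Poly(I:C) was accompanied by higher transcript levels of 9 of the 10 members, both pro-survival and pro-apoptotic, and by a lower level of Bcl2. All 10 members passed the expression limit of a mean of 0.5 TPM, in untreated libraries as well as treated ones. With limma on log2(TPM + 1) and Benjamini-Hochberg adjustment over 12520 tested genes, 9 members rose and 1 fell at an adjusted p under 0.05. Calls were common in these libraries: 60.8% of all tested genes passed in either direction, 28.4% as a rise and 32.4% as a fall, so a call alone says little about the family. Of the members, 6 rose by a factor of 2 or more on the log2(TPM + 1) scale, which 5.69% of all tested genes did, and Bcl2 fell by such a factor, which 2.76% did. The median log2 fold change was 1.19 over the members and -0.02 over all tested genes. Because the members were chosen with earlier results of these data known, these figures do not stand for the whole family. For tested family genes outside the members, medians were 0.36 (2 pro-survival), -0.1 (6 BH3-only) and -0.12 (4 effector and divergent genes). The untreated and treated libraries did not overlap for any member, which held for 81.3% of tested genes. An exact permutation test with 2 libraries against 2 cannot go below p = 0.333 (two-sided) and was not used for single genes.

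**Figure D1:**
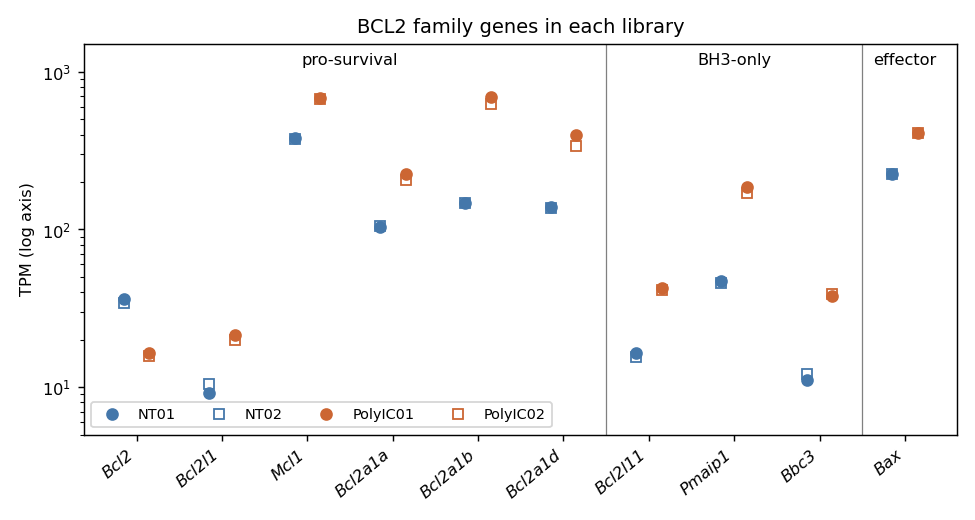
TPM of the 10 members in each of the 4 libraries, on a log axis; blue symbols are untreated and orange symbols are treated libraries, with no error bars because every value is shown. Treated values lie above untreated ones for every member except Bcl2, where they lie below (36.0 and 34.3 against 16.6 and 15.8 TPM).

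Bcl2, the founding pro-survival member of the family, was the only one of the 10 to fall. It lay at 36.0 TPM in NT01, 34.3 in NT02, 16.6 in PolyIC01 and 15.8 in PolyIC02. Both treated libraries were thus below both untreated ones, by a ratio of means of 2.17. Mean TPM was 35.2 ± 1.18 without and 16.2 ± 0.588 with poly(I:C) (SD, n = 2 per group here and below), a log2 fold change of -1.07 with an SE of 0.0536 (limma adjusted p = 3.33e-05). A fall of this size or larger was found for 2.26% of tested genes. RefSeq places Bcl2 on chromosome 1, from 106538176 to 106714290 (GRCm38, as for all members).

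The table holds a pair of curated Bcl2 transcripts that encode proteins with different ends, and the fall lay mainly in the longer form. The transcript for the protein of 236 residues, the membrane-anchored form, was at 30.3 and 27.6 TPM in untreated and 11.7 and 11.6 TPM in treated libraries. It fell with a log2 fold change of -1.24 (adjusted p = 0.00231 in limma over 31209 transcripts, of which 10.5% fell). The transcript for the protein of 199 residues was at 5.67 and 6.76 TPM in untreated and 4.89 and 4.15 TPM in treated libraries, and this difference did not pass (log2 fold change -0.39 with an SE of 0.158, limma adjusted p = 0.178). The shorter form made up 15.8% and 19.7% of Bcl2 TPM without and 29.5% and 26.3% with poly(I:C). Whether the 2 transcripts differ in their response was not itself tested.

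Mcl1 encodes a short-lived pro-survival protein that binds BIM, PUMA, NOXA and BAK, and untreated cells held more of it than of any other member. Its level was 381.7 TPM in NT01, 373.1 in NT02, 682.5 in PolyIC01 and 669.4 in PolyIC02. The treated libraries lay 1.79-fold above the untreated ones by ratio of means, with a log2 fold change of 0.84 with an SE of 0.0255 (limma adjusted p = 7.26e-06). This was the smallest change of the 10 members on the log2(TPM + 1) scale and the largest but one in added TPM, after Bcl2a1b. At least 98.1% of Mcl1 TPM in each library was in the curated transcript, which encodes 331 residues. Its position is chromosome 3, 95656944 to 95663179.

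The A1 copies were already abundant in untreated cells and rose unequally. Bcl2a1b was at 146.5 TPM in NT01, 147.5 in NT02, 692.7 in PolyIC01 and 628.3 in PolyIC02. This 4.49-fold rise was the largest of the 10 members, with a log2 fold change of 2.16 with an SE of 0.0484 (limma adjusted p = 2.83e-06), and 1.21% of tested genes rose as much or more. Bcl2a1d was at 138.7, 136.8, 394.5 and 337.9 TPM in the same order, 2.66-fold higher with poly(I:C) (log2 fold change 1.40 with an SE of 0.0762, limma adjusted p = 0.000114). For Bcl2a1a the values were 103.2, 105.8, 225.1 and 207.1 TPM, a 2.07-fold rise (log2 fold change 1.04 with an SE of 0.0454, limma adjusted p = 2.13e-05). In each copy PolyIC01 was the higher of the treated libraries.

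The proportions among the copies moved with treatment. Bcl2a1b held 37.7% and 37.8% of their summed TPM in the untreated libraries and 52.8% and 53.6% in the treated ones. The ratio of Bcl2a1b to Bcl2a1a was 1.42 and 1.39 without and 3.08 and 3.03 with poly(I:C), with little spread within a group. This shift was not tested, and it rests on the split of reads between near-identical sequences. Summed with the related gene Bcl2a1c before the fit, the A1 genes went from 389.2 and 390.3 TPM to 1314 and 1174 TPM, 3.19-fold higher (log2 fold change 1.67 with an SE of 0.0546, limma adjusted p = 1.36e-05).

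Around the copies on chromosome 9, other genes moved less. Within 500000 bases of the outermost copies 12 other genes were tested, of which 5 rose and 2 fell, with 5 not passing. Over all tested genes 28.4% rose and 32.4% fell, so these counts alone say little about the region. The largest change among them was in Mthfs, next to Bcl2a1b, which went from 17.2 and 17.7 TPM to 28.6 and 28.6 TPM (log2 fold change 0.68, adjusted p = 0.000113 in limma). Its related gene Mthfsl, next to Bcl2a1d, went from 32.0 and 34.9 TPM to 54.3 and 47.7 TPM (log2 fold change 0.59, adjusted p = 0.0013). The choice to name both came after their values were seen.

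The promoter windows of the A1 copies are shown because the copies rose together yet unequally. Each runs from 250 bases before to 50 bases after the RefSeq gene start (GRCm38.p6), 5′ to 3′ in the direction of the gene, with capitals at positions where the copies are not all alike, marked only within the stretch that all 3 windows cover.
Bcl2a1a, chr9:88956670-88956969, plus strand: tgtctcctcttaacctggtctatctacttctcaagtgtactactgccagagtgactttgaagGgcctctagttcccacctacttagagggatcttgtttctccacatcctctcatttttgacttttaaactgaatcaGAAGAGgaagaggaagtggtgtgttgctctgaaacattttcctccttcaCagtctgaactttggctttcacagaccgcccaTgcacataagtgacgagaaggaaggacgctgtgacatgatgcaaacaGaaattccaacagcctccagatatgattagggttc
Bcl2a1b, chr9:89199023-89199322, plus strand: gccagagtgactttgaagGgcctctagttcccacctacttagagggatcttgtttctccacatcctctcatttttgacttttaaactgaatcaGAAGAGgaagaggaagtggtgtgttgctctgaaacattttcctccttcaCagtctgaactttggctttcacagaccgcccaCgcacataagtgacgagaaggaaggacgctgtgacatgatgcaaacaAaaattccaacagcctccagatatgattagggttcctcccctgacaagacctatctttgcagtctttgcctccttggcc
Bcl2a1d, chr9:88731801-88732100, minus strand: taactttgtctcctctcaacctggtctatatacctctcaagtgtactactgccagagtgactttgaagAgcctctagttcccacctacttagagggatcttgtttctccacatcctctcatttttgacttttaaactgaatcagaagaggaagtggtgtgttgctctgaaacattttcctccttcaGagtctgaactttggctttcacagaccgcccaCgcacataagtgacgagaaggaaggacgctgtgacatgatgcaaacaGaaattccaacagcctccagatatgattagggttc

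Over the 256 aligned columns that all 3 windows cover, 246 (96.1%) were identical. The windows of Bcl2a1a and Bcl2a1b differed at 2 columns. By the uncertain split of reads, these copies had the smallest and the largest rise of the 3, and any link to the windows was not tested. The window of Bcl2a1b is placed further along the shared sequence because its annotated start lies further downstream. Of the differing columns, 6 are a stretch that Bcl2a1d lacks, at the capitals that stand together in the other copies.

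Bcl2l1 encodes BCL-XL, a long-lived pro-survival protein, and was the least abundant member in untreated cells. It was at 9.19 TPM in NT01, 10.5 in NT02, 21.3 in PolyIC01 and 20.0 in PolyIC02. Treated values exceeded untreated ones throughout, 2.10-fold by ratio of means (log2 fold change 1.00 with an SE of 0.0787, limma adjusted p = 0.000182). Its value on the log2(TPM + 1) scale fell just short of 2-fold, so it is not among the 6 members counted above. The division of this gene among its 8 transcripts was unstable: the main curated transcript for BCL-XL, of 233 residues, held 89.6% of it in NT01, 42.2% in NT02, 55.8% in PolyIC01 and 74.4% in PolyIC02. Only the gene's total is therefore read here. Bcl2l1 and Bcl2l11 share chromosome 2, at 152758732 to 152833803 and at 128126038 to 128162547.

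**Figure D2:**
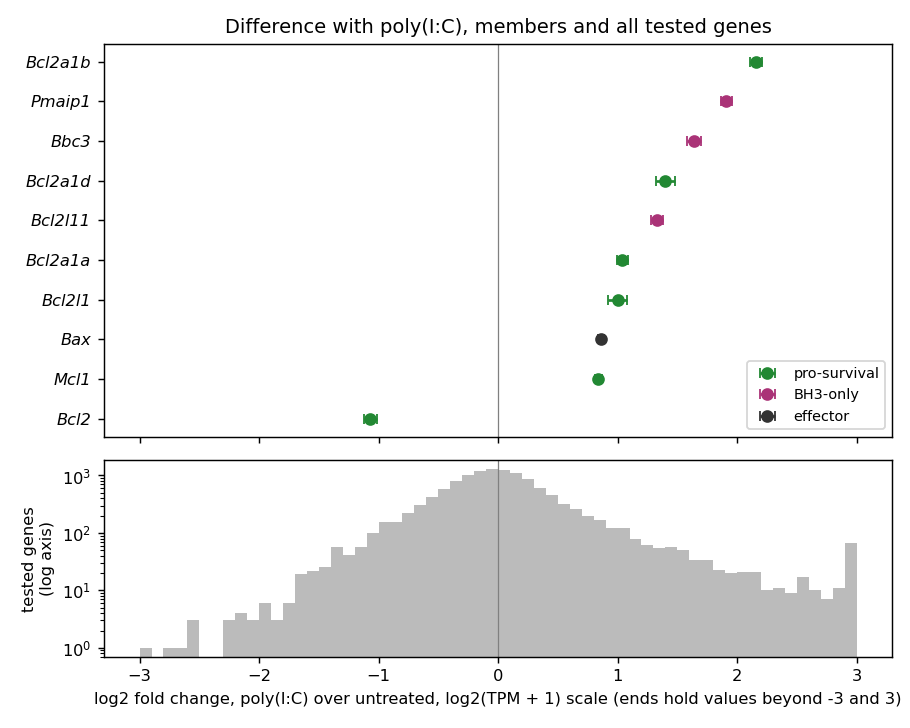
The upper panel shows the log2 fold change of each member with its standard error from limma, coloured by role, and the lower panel the log2 fold changes of all 12520 tested genes as a histogram with a log count axis. Bcl2 lies at -1.07 and the other members between 0.84 (Mcl1) and 2.16 (Bcl2a1b), to the right of most tested genes.

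The BH3-only genes among the members all rose, with larger log2 fold changes than those of Mcl1 and Bax. Pmaip1 encodes NOXA, which binds MCL1 and A1 in preference to the other pro-survival proteins. It was at 47.2 TPM in NT01, 45.9 in NT02, 185.3 in PolyIC01 and 171.3 in PolyIC02, a 3.83-fold rise (log2 fold change 1.91 with an SE of 0.0459, limma adjusted p = 3.1e-06). This was the largest change among the pro-apoptotic members, matched or exceeded by 1.61% of tested genes. Its position is chromosome 18, 66458604 to 66465558.

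Bbc3 encodes PUMA, a BH3-only protein known as a p53 target that binds all pro-survival members. Its TPM were 11.1 in NT01, 12.2 in NT02, 37.9 in PolyIC01 and 39.0 in PolyIC02. This was 3.30-fold higher in the treated libraries, which were close to each other (log2 fold change 1.64 with an SE of 0.062, limma adjusted p = 1.34e-05). Its curated transcript, for 193 residues, held 37.3% to 42.0% of the gene's TPM in each library and rose by itself (4.65 and 4.56 to 14.7 and 15.5 TPM, log2 fold change 1.52, limma adjusted p = 0.00252 over all transcripts tested, of which 10.6% rose).

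Bcl2l11 encodes BIM, which binds all pro-survival members and limits the life of lymphocytes and dendritic cells in mice. It was at 16.5 TPM in NT01, 15.6 in NT02, 42.8 in PolyIC01 and 41.1 in PolyIC02, 2.61-fold higher with poly(I:C) (log2 fold change 1.33 with an SE of 0.0525, limma adjusted p = 1.58e-05). BIM is made in several forms that differ in length. Of the forms BimEL, BimL and BimS, the shortest is known as the most potent killer. Curated transcripts for a still shorter protein of 91 residues were low and are not read here. The transcript for the form of 196 residues (BimEL) went from 8.28 and 9.62 to 24.4 and 21.6 TPM and rose (log2 fold change 1.27, adjusted p = 0.00584 over all transcripts tested). That of 140 residues (BimL) went from 5.45 and 3.90 to 13.6 and 15.4 TPM and rose as well (1.46, adjusted p = 0.0118). These calls were lost on leaving out a treated library: the adjusted p without PolyIC01 was 0.0502 for BimEL and 0.069 for BimL, and without PolyIC02 it was 0.0816 for BimL. The form of 110 residues (BimS) was low, at 0.388 and 0.856 TPM without and 1.99 and 1.70 TPM with poly(I:C), and did not pass (0.82, SE 0.221, adjusted p = 0.0761). BimEL held 50.1% to 61.6% of the gene's TPM in every library, with overlap between the groups.

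**Figure D3:**
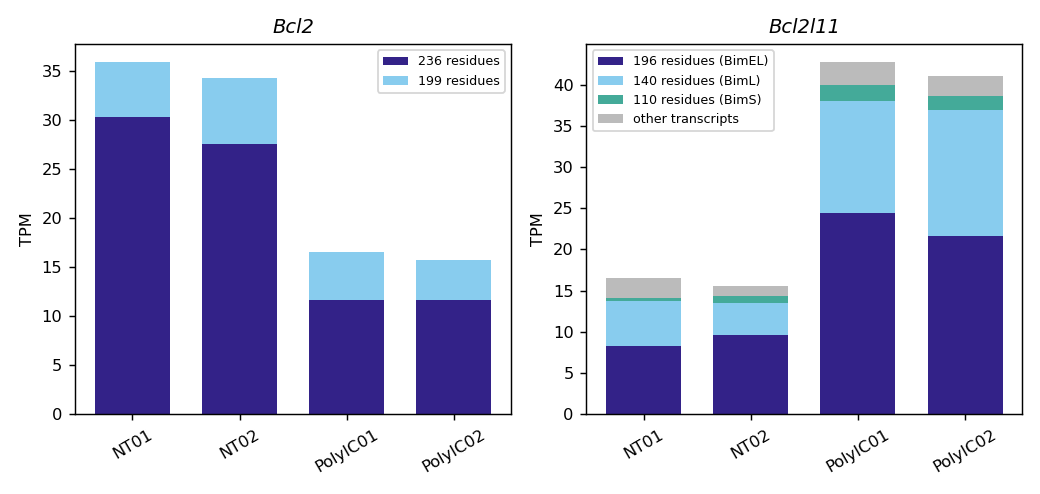
Stacked bars, starting at 0, of the TPM of the transcripts of Bcl2 (left) and Bcl2l11 (right) in each library, coloured by the length of the encoded protein. The dark part of Bcl2, for 236 residues, shrinks from 30.3 and 27.6 TPM to 11.7 and 11.6 TPM, and all named parts of Bcl2l11 are taller in the treated libraries.

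Bax encodes an effector that forms pores in the outer mitochondrial membrane once activated. Its level was 225.4 TPM in NT01, 223.5 in NT02, 406.6 in PolyIC01 and 411.0 in PolyIC02, so the libraries of a group nearly coincided. It rose 1.82-fold (log2 fold change 0.86 with an SE of 0.0238, limma adjusted p = 5.05e-06), and at least 99.1% of its TPM was in the curated transcript for 192 residues. Bax and Bbc3 both lie on chromosome 7, at 45461695 to 45466903 and at 16308398 to 16318334. The other main effector gene, Bak1, did not pass: it was at 193.1 and 196.3 TPM in untreated and 190.2 and 196.3 TPM in treated libraries (log2 fold change -0.01 with an SE of 0.0288, limma adjusted p = 0.762). Whether the 2 effector genes differ in their response was not itself tested, and Bak1 was picked out with its values known.

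In order of level, untreated cells had Mcl1 first, followed by Bax, Bcl2a1b, Bcl2a1d, Bcl2a1a, Pmaip1, Bcl2, Bcl2l11, Bbc3 and Bcl2l1, and no neighbours in this order overlapped in their libraries. With poly(I:C) Mcl1 (675.9 ± 9.28 TPM) and Bcl2a1b (660.5 ± 45.5 TPM) led and could not be ordered, since the value of Bcl2a1b in PolyIC01 exceeded both values of Mcl1. The other neighbours did not overlap. Bcl2 went from the seventh place to the last, behind Bcl2l1.

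Summed over the 6 pro-survival members, TPM went from 815 and 808 in untreated to 2033 and 1878 in treated libraries. Within that sum the share of Bcl2 went from 4.42% and 4.25% to 0.816% and 0.839%. The share of Mcl1 went from 46.8% and 46.2% to 33.6% and 35.6%, while that of the 3 A1 copies went from 47.6% and 48.3% to 64.6% and 62.5%. A1 and MCL1 transcripts together thus made up most of the pro-survival sum in either state, and the ratio of Mcl1 to Bcl2 went from 10.6 and 10.9 to 41.1 and 42.5.

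The sum of the 3 BH3-only members went from 74.8 and 73.7 to 266 and 251 TPM, with Pmaip1 holding 63.1% and 62.3% of it before and 69.7% and 68.2% after. TPM of the pro-survival members exceeded that of these 3 BH3-only members by a ratio of 10.9 and 11.0 without and 7.64 and 7.47 with poly(I:C). Against Bax the same pro-survival sum moved the other way, from 3.62 and 3.61 to 5.00 and 4.57. Against BH3-only members and Bax together it was 2.72 and 2.72 without and 3.02 and 2.84 with poly(I:C). The ratio of Mcl1 to Pmaip1 was 8.08 and 8.13 without and 3.68 and 3.91 with poly(I:C), and that of the A1 copies to Pmaip1 was 8.22 and 8.5 against 7.08 and 6.85. The 7 other BH3-only genes looked at below, left out here, summed to 218 and 249 TPM without and 223 and 231 TPM with poly(I:C). With them in the BH3-only sum, its ratio would be higher, not lower, in the treated libraries. The 3 other pro-survival genes, also left out, summed to 16.3 and 14.4 against 17.3 and 16.1 TPM. These sums and ratios are descriptions of RNA of the members in these libraries, with no test, and say nothing of protein.

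**Figure D4:**
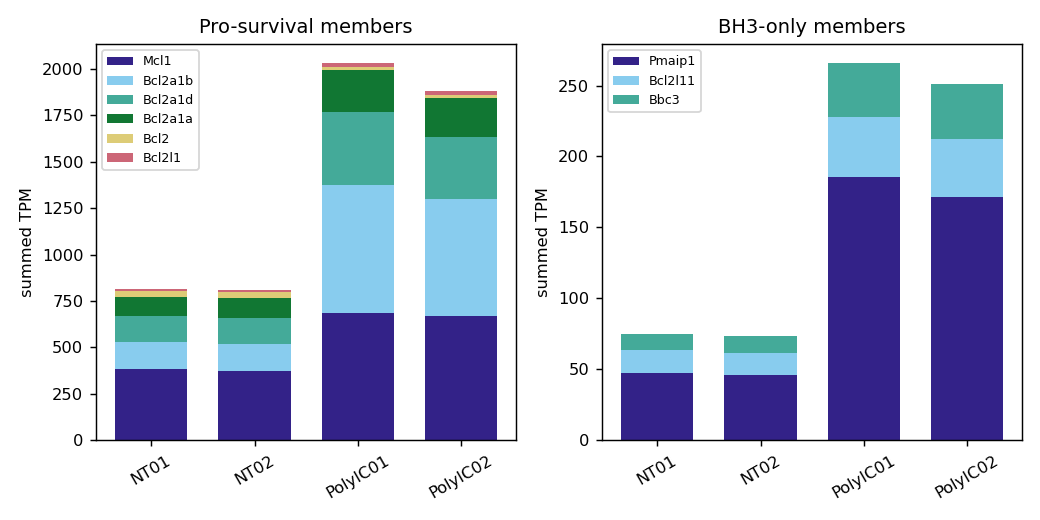
Stacked bars, starting at 0, of the summed TPM of the 6 pro-survival members (left) and the 3 BH3-only members (right) in each library; the vertical scales differ. The pro-survival sum is 815 and 808 TPM in untreated and 2033 and 1878 TPM in treated libraries, with Bcl2a1b taking the largest part of the increase.

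A known form of NF-kB site was looked for in the promoter windows, since several members are known NF-kB targets and the NF-kB subunit gene Relb rose (below). Of the 10 members 9 have a window in the RefSeq table, 14 windows in all. The letters GGGNNTTTCC, on either strand, were found in 3 of the 14 windows, 1 each of Bcl2l1, Mcl1 and Bbc3, and in 1.63% of the 32851 windows of the table. The windows of the A1 copies shown above held no match. Each match lies inside the span given above for its gene, so these windows belong to starts other than the outermost one. The matches are shown with 25 bases on each side, 5′ to 3′ in the direction of the gene, with capitals marking the match, which lies on the opposite strand in each (GRCm38.p6).
Bcl2l1, chr2:152830901-152830960, minus strand: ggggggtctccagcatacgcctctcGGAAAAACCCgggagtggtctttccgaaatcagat
Mcl1, chr3:95658668-95658727, plus strand: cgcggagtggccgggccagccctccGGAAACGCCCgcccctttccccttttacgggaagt
Bbc3, chr7:16309422-16309481, plus strand: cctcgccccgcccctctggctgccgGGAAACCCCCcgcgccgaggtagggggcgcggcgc

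Sites for interferon-driven factors and for AP-1 were searched the same way, on both strands. The letters GAAANNGAAA, a form of the interferon-stimulated response element, were in none of the 14 windows and in 3.44% of all windows. TTCNNNGAA, a form of the gamma-activated site bound by STAT factors, was in none of the 14 and in 8.3% of all, and TGAGTCA, a form of the AP-1 site, was in none of the 14 and in 5.2% of all. These searches cover these letters in these windows alone, and a match is a description of sequence.

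Genes of the wider cell death machinery moved in both directions. Their median was smaller than that of the members. Members and lists were both chosen with earlier results of these data known, so this gap cannot be read apart from that choice. Over 8 lists of related genes, 56 of the 63 genes in the table were tested. Of these, 31 rose and 11 fell, with 14 not passing, and the median log2 fold change was 0.20. A rise by a factor of 2 or more was found for 10 of them. Over all tested genes 28.4% rose, 32.4% fell and 5.69% rose by such a factor, with a median of -0.02, and the counts of each list below are to be read against these shares. The values below are log2 fold changes on the log2(TPM + 1) scale with adjusted p from limma.

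Family genes outside the 10 members moved in both directions. Of the other pro-survival genes, Bcl2l2 (BCL-W) was at 15.5 and 14.1 TPM without and 15.6 and 15.0 TPM with poly(I:C) and did not pass (0.05, adjusted p = 0.585), Bcl2l10 was listed at 0 in all 4 libraries, and Bcl2a1c rose from 0.756 and 0.281 to 1.72 and 1.10 TPM (0.67, adjusted p = 0.0332). Of 6 other BH3-only genes tested, 1 rose and 1 fell, with 4 not passing. Bmf, whose product binds the motor-associated dynein light chain, rose from 26.7 and 28.5 to 33.7 and 32.4 TPM (0.25, adjusted p = 0.00854). Bik fell from 2.24 and 2.18 to 1.51 and 1.58 TPM (-0.34, adjusted p = 0.0191). Bad, a target of survival kinases, and Bid, the substrate of caspase-8, had log2 fold changes of 0.02 and -0.02 and did not pass; they were named after their values were seen. Of 4 other effector and divergent genes 1 rose and 2 fell. Bcl2l14 rose from 3.43 and 3.32 to 8.77 and 9.32 TPM (1.20, adjusted p = 7.9e-05), while Bcl2l13 (-0.25, adjusted p = 0.00829) and Bcl2l12 (-0.24, adjusted p = 0.00837) fell.

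Downstream of the mitochondria, 5 of 10 apoptosome and caspase genes rose and 3 fell, with 2 not passing. Apaf1, which assembles with cytochrome c into the apoptosome, rose from 26.9 and 26.0 to 49.3 and 45.7 TPM (0.82, adjusted p = 8.66e-05). The caspase gene Casp6 fell from 110.4 and 113.2 to 66.5 and 68.8 TPM (-0.72, adjusted p = 2.87e-05). Of 5 inhibitor of apoptosis genes 3 rose and 1 fell. Birc3 (cIAP2), a ubiquitin ligase of TNF receptor signalling, rose from 64.3 and 63.1 to 200.8 and 193.6 TPM (1.61, adjusted p = 2.07e-06), and Birc2 (cIAP1) rose too (0.50, adjusted p = 0.00167). Birc5 (survivin), which is known mainly for its part in mitosis, fell from 209.9 and 203.7 to 65.9 and 68.5 TPM (-1.61, adjusted p = 2.29e-06).

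In the death receptor pathway 4 of 6 tested genes rose and 1 fell, with 1 not passing. Cflar, which encodes the caspase-8 inhibitor cFLIP, rose from 15.0 and 12.0 to 39.1 and 42.1 TPM (1.53, adjusted p = 0.000158). The gene of the mouse TRAIL receptor, Tnfrsf10b, rose from 8.88 and 7.06 to 15.4 and 15.2 TPM (0.87, adjusted p = 0.000995), and that of a TNF receptor, Tnfrsf1a, rose from 91.9 and 91.6 to 120.4 and 120.8 TPM (0.39, adjusted p = 0.000117). Fas was under 0.5 TPM in each library and was not tested.

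Among known transcriptional regulators of BCL2 family genes 11 of 14 tested rose and 2 fell, with 1 not passing, and 6 rose by a factor of 2 or more. Ddit3 (CHOP), a stress factor known to act on Bcl2, Bcl2l11 and Bbc3, rose from 59.3 and 50.7 to 187.0 and 182.6 TPM (1.74, adjusted p = 3.61e-05). The NF-kB subunit gene Relb rose from 34.0 and 31.4 to 104.6 and 101.1 TPM (1.62, adjusted p = 7.19e-06), and the interferon regulatory factor gene Irf1 from 82.2 and 73.3 to 223.6 and 216.5 TPM (1.49, adjusted p = 1.7e-05). Chosen after their values were seen, the p53 gene Trp53 fell slightly, from 218.1 and 209.4 to 199.4 and 199.9 TPM (-0.10, adjusted p = 0.0335), while its target and inhibitor Mdm2 rose from 67.8 and 63.1 to 170.9 and 168.8 TPM (1.36, adjusted p = 7.35e-06). Of the 9 genes of protein turnover and mitochondrial partners, 5 rose and 1 fell, with 3 not passing. Marchf5, which encodes a ubiquitin ligase of the outer mitochondrial membrane, rose from 53.5 and 49.9 to 104.8 and 108.0 TPM (1.03, adjusted p = 2.05e-05). The channel gene Vdac1 fell from 155.8 and 165.9 to 114.2 and 117.2 TPM (-0.47, adjusted p = 0.000222), and Vdac2, whose product is known to hold BAK, rose from 337.4 and 337.7 to 412.2 and 398.0 TPM (0.26, adjusted p = 0.000538).

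**Figure D5:**
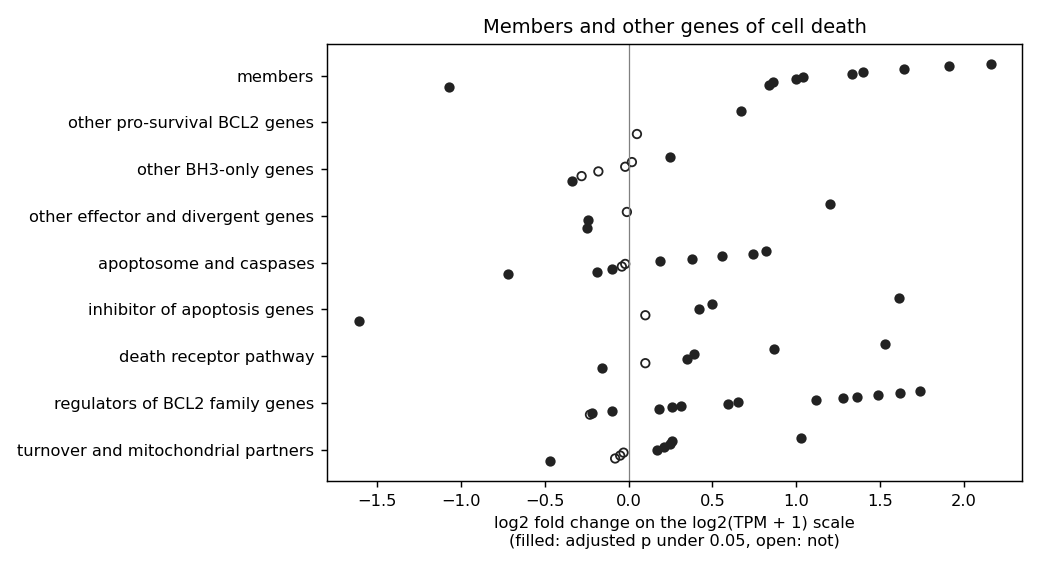
Log2 fold change on the log2(TPM + 1) scale of each tested gene in the members and in the 8 related lists, 1 point per gene, filled where the adjusted p in limma was under 0.05. The members lie at -1.07 (Bcl2) or from 0.84 upwards, while most points of the lists lie nearer to 0.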

How the data were processed

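The values the authors deposited are TPM for RefSeq transcripts: each column used sums to 1000000, although the table is named as FPKM. Per the submitters' processing notes, the tools were kallisto (0.42.4) and bcl2fastq (2.20.0.422) and the build was GRCm38, with no role or order stated. Libraries were stranded and poly(A)-selected, per the labels' protocols; the strand setting of the quantification is not stated, so antisense partners may share reads. The header has 5 names for 6 value columns, which leaves 2 columns of samples out of every step, and the replicate numbers of the others are not settled.

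Of 107384 transcripts, 86722 (80.8%) matched a symbol of the RefSeq table (GRCm38.p6) on the accession, version ignored. Their TPM (91.8% to 92.2% of each library) were summed per gene. The test was limma (version 3.58.1, R 4.3.3) on log2(TPM + 1) for genes that averaged 0.5 TPM or more over the libraries, with trend and robust moderation and Benjamini-Hochberg adjustment. With 2 against 2 libraries it has 2 residual degrees of freedom. A call of rose or fell means an adjusted p under 0.05. A fold change on the log2(TPM + 1) scale understates changes of low genes, and a fold given as such is a ratio of mean TPM. Promoter windows were aligned with MAFFT 7.526. Tables and plots used pandas 2.3.3, numpy 2.4.6 and matplotlib 3.10.9 in Python 3.11.15. The members, lists and motifs were chosen with earlier results of these data known. All members are named, and from each list up to 3 passing genes with the largest change; exceptions are marked, and 1 gene that the rule names is not reported here.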

Additional observations from a re-analysis of the deposited data

How the results depend on the processing

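All 10 members kept their direction and an adjusted p under 0.05 in limma under each alternative in which they were fitted: pseudocounts of 0.1 and 0.5 TPM, no filter on low values, a mean of at least 1 TPM, median ratio scaling, quantile normalization, limma without trend and robust moderation, curated transcripts only, and leaving out each library. With the A1 genes summed into 1 feature, 7 features of the family rose and 1 fell. Leaving out 1 library leaves a lone sample that is assumed to vary like the other group; Bcl2 then lay between -1.11 and -1.04 and Bcl2a1b between 2.09 and 2.23 on the log2 scale. Over all tested genes, leaving out 1 library gave 2722 to 3756 rises and 3402 to 3951 falls, against 3556 and 4062. Median ratio scaling gave 3854 rises and 3892 falls, and quantile normalization 3424 rises and 4524 falls. With curated transcripts only, there were 2561 rises and 3430 falls among 11142 tested genes. The median of all genes moved by less than 0.1 on the log2 scale under every scaling. No paired analysis was possible because the replicate numbers of the columns are not settled by the header. Depth is unknown, so counting error could not be given.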
